A study of Mus musculus with 6 samples.

Results

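The 8 genes described here, Npm1, Nras, Ptpn11, Cbl, Jak2, Trp53, Wt1 and Nf1, are signalling and tumour suppressor genes that are recurrently mutated in human leukemia. They were taken by symbol from the 24063 gene symbols of the count files. All 8 were listed in every library, and 7 of them carried enough counts to be tested, among 14145 genes tested in all. Wt1 was not tested.

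The genes fall into 3 roles. Nras is a small GTPase that relays signals from cytokine receptors to the Raf, MEK and ERK kinases. Ptpn11 encodes the phosphatase SHP2, which promotes Ras activation, whereas Nf1 encodes neurofibromin, which switches Ras off. Jak2 is the kinase attached to the thrombopoietin and erythropoietin receptors, and Cbl is a ubiquitin ligase that ends signalling by marking activated receptors and kinases for degradation. Trp53 encodes the stress-responsive transcription factor p53. Npm1 encodes nucleophosmin, an abundant nucleolar protein that takes part in ribosome assembly, and Wt1 is a zinc finger transcription factor. In leukemia, Ras pathway genes and Jak2 are typically activated by mutation, while Nf1 and Trp53 are typically lost.

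RNA was sequenced from LSK cells, the lineage-negative, Sca-1 and c-Kit positive bone marrow fraction that holds haematopoietic stem and early progenitor cells. One group was 3 Asxl2-/- samples and the other 3 wild type samples, all on the C57BL/6 strain and all taken after pIpC injection. pIpC is a synthetic double-stranded RNA that induces interferon and thereby the Mx1-cre transgene, which the library titles give for both groups. In the knockouts Mx1-cre deletes the floxed exon 11 of Asxl2. The Mx1 promoter responds to interferon in many cell types, so deletion need not be restricted to blood cells, and both groups had been exposed to interferon. The labels give neither the age nor the sex of the mice. The methods of the study call the replicates biological, without saying whether each was 1 mouse or a pool, so p-values measure the spread between these samples.

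The deposited counts came in 2 kinds of file. Asxl2-/- replicates 1 and 3 and wild type replicate 2 had 1 count per transcript (gene-count files), and Asxl2-/- replicate 2 and wild type replicates 1 and 3 had 1 count per exon (exon-count files), which were summed over the exons of a transcript. A spliced read can enter such a sum more than once, so levels of the 8 genes are compared here within a kind of file, whereas sums over marker lists and Xist are given as ranges over both kinds, and fold changes come from a fit with the kind of file as a covariate. Library totals ran from 25528540 to 29136012 in the gene-count files and from 53147729 to 55032075 in the exon-count files, and 3 counts, taken as the detection floor, corresponded to 0.0564 to 0.106 CPM (normalised read counts scaled to a common library size). In the exon-count files, exon 11 of Asxl2 took 0.583% of the gene's counts in the knockout (28 of 4804) and 10.3% and 12.0% in the wild type libraries. Loss of the exon could not be seen in Asxl2-/- replicates 1 and 3, which had 1 count per transcript. Over the whole Asxl2 transcript the log2 fold change in the fit was 0.11. Xist, the X-inactivation transcript, lay between 1071 and 2351 CPM in the knockouts and between 12.97 and 61.29 CPM in the wild type, so genotype and sex cannot be told apart in any comparison below, although none of the 8 genes lies on a sex chromosome.

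Summed CPM of 10 B-lymphoid marker genes was 194 to 199 in the knockouts and 45.0 to 68.0 in the wild type. Of the 10, 8 passed the threshold, an adjusted p under 0.05 in edgeR, upward. Of all 14145 tested genes, 288 passed it upward and 43 downward. Megakaryocyte markers summed to 359 to 881 against 181 to 387 CPM, with 5 of 9 tested past it upward. Summed erythroid markers were lower in every knockout, at 428 to 619 against 899 to 1255 CPM, with none of 12 past the threshold. Single erythroid markers went both ways, 4 of the 12 being higher in the fit, and 7 without Asxl2-/- replicate 2 or wild type replicate 1. Without Asxl2-/- replicate 1, without wild type replicate 2 and in limma-voom, 0 of the 12 were higher each time. Under median-ratio scaling and without wild type replicate 3, 2 were higher each time. The 8 LSK markers summed to 1483 to 1797 against 1333 to 1498 CPM, with 2 past it upward. Of the genes that define the sort, Kit lay between 280 and 431 CPM over all libraries. Ly6a (Sca-1) measured 52.6 and 57.6 against 260 CPM in the gene-count files and 69.1 against 40.5 and 148 CPM in the exon-count files, with a log2 fold change of -1.34 (adjusted p = 0.187 in edgeR). Mature myeloid markers summed to 2067 to 5474 against 2116 to 6423 CPM, and 2 of 10 passed upward. The sums went opposite ways by kind, at 3804 and 2067 against 6423 CPM in gene-count files and 5474 against 2116 and 4119 in exon-count files. By gene, 7 of the 10 were higher in the fit, with a median log2 fold change of 1.25. Of all 14145 tested genes, 7084 were higher. T and NK markers summed to 27.2 to 35.6 against 33.1 to 48.9 CPM, and endothelial and stromal markers to 259 to 451 against 164 to 291 CPM, with none of either list past the threshold. The part of these cells in the values of the 8 genes was not tested, and in bulk RNA fewer cells of a type and less RNA per cell cannot be told apart.

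Per kilobase of transcript, the order of the 8 genes was nearly the same in both kinds of file. Npm1 stood far above the rest, at 1195 ± 256 CPM per kb (SD, n = 3) in the gene-count files and 2003 ± 410 (SD, n = 3) in the exon-count files. Trp53 followed at 128 ± 15.0 and 175 ± 27.2 CPM per kb. Ptpn11, Nras and Jak2 formed a middle group, at 34.8, 33.6 and 29.7 CPM per kb in the gene-count files and 32.2, 26.8 and 30.7 CPM per kb in the exon-count files. Neighbours within this middle group overlapped in range in both kinds of file, and their order is not fixed by these data. Cbl lay below them at 17.5 and 12.4 CPM per kb and Nf1 lower again at 3.30 and 2.89 CPM per kb, neither range touching its neighbour. Wt1 was at 0. These means cover both genotypes within a kind of file.

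**Figure D1:**
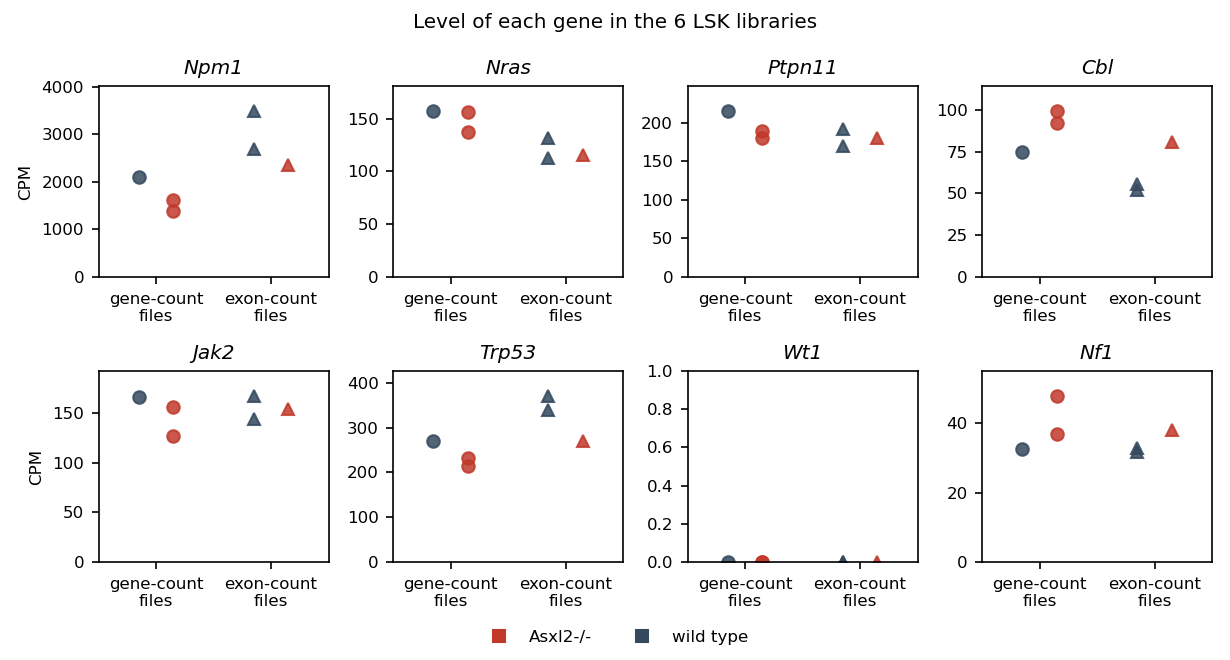
Normalised read counts (CPM, TMM scaling, linear axes from 0) of each of the 8 genes in 3 Asxl2-/- (red) and 3 wild type (dark blue) LSK libraries, with gene-count files as circles on the left and exon-count files as triangles on the right of each panel. Cbl and Nf1 were higher and Npm1 and Trp53 lower in the knockouts within both kinds of file, whereas the groups overlapped in the exon-count files for Nras, Ptpn11 and Jak2, and Wt1 was at 0 throughout.

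The comparison of Asxl2-/- with wild type asked whether loss of Asxl2 altered transcript levels of these genes. None of the 7 tested genes passed the threshold of an adjusted p of 0.05 in the quasi-likelihood test of edgeR, against 2.34% of all tested genes (331 of 14145). Cbl came closest, 1.39-fold higher in the knockouts, followed by Trp53 and Npm1, which were 0.796 and 0.738 times the wild type level. At an unadjusted p under 0.05, 1 gene was higher (Cbl) and 2 were lower (Trp53 and Npm1), 42.9% of the 7 where 27.7% of all genes stood past that limit. In DESeq2 these same 3 genes passed, with adjusted p of 0.00742 for Cbl, 0.00663 for Trp53 and 0.0159 for Npm1, where DESeq2 called 16.5% of all tested genes (2329 of 14145), and the calls therefore depend on the tool. Within both kinds of file, all knockouts lay above all wild type libraries for Cbl and Nf1, a pattern shown by 25.4% of all tested genes, and below them for Npm1 and Trp53, a pattern shown by 23.3%.

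**Figure D2:**
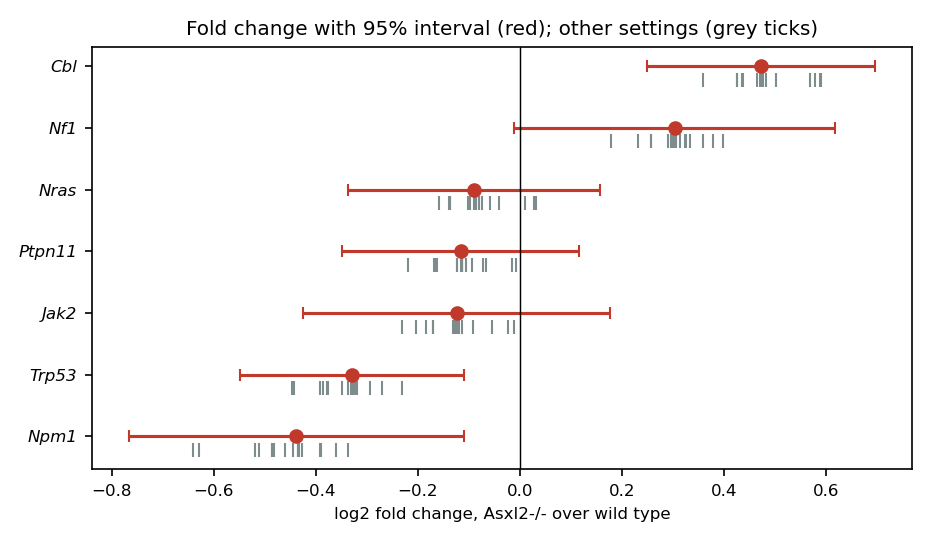
Log2 fold change of each tested gene, Asxl2-/- over wild type, from the fit of 6 LSK libraries in edgeR (red points) with 95% intervals (red bars), and the same value under the other tools, scalings, filters, designs and left-out libraries (grey ticks). The intervals of Cbl, Trp53 and Npm1 exclude 0 before adjustment over all genes, and grey ticks crossed 0 for Nras alone.

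Cbl was the member with the smallest p. Its transcript (NM_007619, chr9:44149262-44234046, minus strand, 16 exons, mm10) measured 92.2 and 99.3 CPM in the knockout gene-count files against 74.7 in the wild type one. In the exon-count files it measured 80.9 CPM in the knockout against 55.7 and 52.2 in the wild type. The knockout libraries were thus higher in each kind of file, without overlap. The fitted log2 fold change was 0.47 with an SE of 0.0918 (95% interval 0.25 to 0.70, adjusted p = 0.0583 in edgeR), from log2 CPM levels of 6.44 ± 0.0847 in the knockouts and 5.97 ± 0.0810 in the wild type (SD, n = 3 each). The gene-count files alone gave 0.36 and the exon-count files alone 0.58, and without single libraries it lay between 0.36 and 0.59, with adjusted p between 0.0528 and 0.202. The difference was spread along the gene. In the exon-count files, 15 of the 16 exons were higher in the knockout library than in both wild type libraries, where 31.9% of all exons with a mean of at least 50 counts were. The exon ratios ran from 0.22 for exon 14 to 0.91 for exon 2 on the log2 scale, with a median of 0.58. These ratios rest on 1 knockout library and carry no test.

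The 250 bases before the Cbl start (chr9:44234047-44234296, minus strand, RefSeq sequence on GRCm38.p6, the assembly behind mm10) are shown because Cbl lay nearest the threshold, with those of Nf1, the other gene higher in both kinds of file, and of Trp53, which was lower. RefSeq promoter sequences were matched for 6 of the 8 genes, and none was matched for Npm1 and Wt1. Capitals mark matches, on either strand, to GGGCGG (a GC box), CCGGAA (an Ets core) and 3 further motifs searched, which were TGTGGT (Runx), CACGTG (E-box) and TGACGTCA (cAMP response). Positions count bases back from the start.
Cbl: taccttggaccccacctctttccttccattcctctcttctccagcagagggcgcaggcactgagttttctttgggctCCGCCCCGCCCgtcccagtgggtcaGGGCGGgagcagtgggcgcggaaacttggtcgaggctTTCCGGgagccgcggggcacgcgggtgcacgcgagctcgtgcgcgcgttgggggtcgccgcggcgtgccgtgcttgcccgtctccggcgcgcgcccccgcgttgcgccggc
Nf1 (chr11:79339642-79339891, plus strand): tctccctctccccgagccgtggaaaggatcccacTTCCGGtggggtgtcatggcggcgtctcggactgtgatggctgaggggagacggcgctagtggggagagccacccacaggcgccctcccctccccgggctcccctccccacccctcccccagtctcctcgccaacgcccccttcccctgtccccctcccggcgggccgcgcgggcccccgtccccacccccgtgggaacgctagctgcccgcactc
Trp53 (chr11:69580109-69580358, plus strand): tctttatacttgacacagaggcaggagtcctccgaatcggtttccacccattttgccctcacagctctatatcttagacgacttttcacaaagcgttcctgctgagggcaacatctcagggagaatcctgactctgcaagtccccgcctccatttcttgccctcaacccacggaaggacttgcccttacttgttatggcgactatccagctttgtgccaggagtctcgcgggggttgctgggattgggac
The Cbl sequence holds 3 GC boxes, at 173, 168 and 148 bases before the start, and an Ets core at 111. Nf1 holds an Ets core at 216, and Trp53 holds none of the 5 motifs in this window. Of 32851 promoters, 32.7% held a GC box, 12.0% an Ets core, 14.0% a Runx motif, 6.02% an E-box and 1.55% a cAMP response motif. GC content was 71.6% for Cbl, 74.0% for Nf1 and 52.8% for Trp53, beside a median of 52.4% over all promoters. For Nras, Ptpn11 and Jak2 it was 48.4%, 66.8% and 80.8%. Among the other members, Nras held an E-box and 2 GC boxes, Ptpn11 an Ets core, 3 GC boxes and a cAMP response motif, and Jak2 2 GC boxes. Overlapping matches were each counted, as for 2 of the GC boxes of Cbl, and a match is a run of letters, not a bound site.

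Nf1, the brake on Ras, was expressed at a low level and was higher in every knockout library within its kind of file. The gene-count files gave 36.9 and 47.9 CPM in the knockouts against 32.6 in the wild type, and the exon-count files 38.0 against 33.0 and 31.8. Its knockout replicates 1 and 3 differed from each other by more than the knockout with the lower value differed from the wild type library of the same kind. The fitted log2 fold change was 0.30 with an SE of 0.130 (95% interval -0.01 to 0.62, adjusted p = 0.192 in edgeR), which did not pass the threshold. It ran from 0.18 without Asxl2-/- replicate 3 to 0.38 without Asxl2-/- replicate 2. Of the 58 exons of its transcript (NM_010897, chr11:79339892-79581609, plus strand), 1 carried at least 50 counts on average, the last, with a ratio of 0.19, and the other 57 summed to 31.7 CPM in the knockout against 27.0 and 26.7 in the wild type.

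Nras and Ptpn11 did not pass the threshold, and their intervals included 0. Nras (NM_010937, chr3:103058285-103067914, plus strand) measured 137 and 156 CPM against 157 in the gene-count files. In the exon-count files it measured 115 against 112 and 131 CPM, the knockout lying between the wild type libraries. Its log2 fold change was -0.09 with an SE of 0.101 (95% interval -0.34 to 0.16, adjusted p = 0.596 in edgeR), and it ran from -0.16 without Asxl2-/- replicate 3 to -0.04 without wild type replicate 3. Ptpn11 (NM_011202, chr5:121130533-121191397, minus strand) measured 190 and 180 against 215 CPM in the gene-count files and 180 against 170 and 192 CPM in the exon-count files. Its log2 fold change was -0.12 with an SE of 0.0956 (95% interval -0.35 to 0.12, adjusted p = 0.462 in edgeR), and it ran from -0.22 without Asxl2-/- replicate 2 to -0.01 without wild type replicate 2. Both intervals leave room for a decrease or an increase of modest size. By exon, Ptpn11 had 2 of 16 exons above and 2 below both wild type libraries, and Nras had 4 of 7 below. Of all exons, 31.9% were above and 42.1% below.

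Jak2, the receptor-bound kinase, did not pass the threshold either. Its transcript (NM_008413, chr19:29251803-29313080, plus strand) measured 127 and 157 CPM in the knockout gene-count files against 166 in the wild type, and 154 against 144 and 167 CPM in the exon-count files. The gene-count knockouts were lower than the wild type, and the exon-count knockout lay between the wild type libraries. The log2 fold change was -0.12 with an SE of 0.124 (95% interval -0.42 to 0.18, adjusted p = 0.546 in edgeR). It ran from -0.23 without Asxl2-/- replicate 2 to -0.01 without wild type replicate 2. Of its 25 exons, 2 were above and 5 below both wild type libraries, where 31.9% and 42.1% of all exons were. An alternative 83-base exon of Jak2 took 1.65% of the gene's exon counts in the knockout and 1.84% and 1.42% in the wild type, the knockout lying between.

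Trp53 was lower in all knockout libraries within each kind of file. Its transcript (NM_001127233, chr11:69580359-69591873, plus strand) measured 215 and 233 CPM against 270 in the gene-count files and 271 against 339 and 371 CPM in the exon-count files. The knockout values lay below the wild type values without overlap in both. The fitted log2 fold change was -0.33 with an SE of 0.0903 (95% interval -0.55 to -0.11, adjusted p = 0.0960 in edgeR), from levels of 7.95 ± 0.0653 against 8.28 ± 0.0729 log2 CPM (SD, n = 3 each). It ranged from -0.39 to -0.27 without single libraries. All 11 exons were lower in the knockout library than in both wild type libraries, where 42.1% of all exons with a mean of at least 50 counts were. Their ratios lay between -0.43 and -0.34 on the log2 scale, a narrower range than in Cbl, most of whose exons carried fewer counts. These exon values rest on 1 knockout library and carry no test. The longer Trp53 transcript has 96 bases beyond the shorter one. It held 28 more counts than the shorter one in the knockout and 59 and 42 more in the wild type. Reads that run from those bases into the shared part can enter both, so these differences are not the full count over the 96 bases.

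Npm1 was the most abundant member and was also lower in every knockout within its kind of file. Its transcript (NM_008722, chr11:33152498-33163206, minus strand, 11 exons) measured 1382 and 1621 CPM against 2095 in the gene-count files and 2354 against 2699 and 3492 CPM in the exon-count files. The 2 wild type exon-count libraries lay farther from each other than the knockout lay from the lower of them. The log2 fold change was -0.44 with an SE of 0.135 (95% interval -0.77 to -0.11, adjusted p = 0.114 in edgeR). Without single libraries it ran from -0.52 to -0.36, and it passed the threshold only when wild type replicate 1 was left out (adjusted p = 0.0458). All 11 exons were lower in the knockout library than in both wild type libraries, where 42.1% of all exons were, with log2 ratios from -0.435 to -0.325. As for Trp53, this rests on 1 knockout library and carries no test. The alternative last exon of a shorter Npm1 transcript (NM_001252261) drew counts equal to 2.41% of the sum over the main transcript, which lacks that exon, in the knockout, and to 2.50% and 2.82% in the wild type. Mouse Npm1 has processed pseudogenes, and how reads that match several places were counted is not given in the sources used here, so its level is uncertain in that respect.

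Wt1 was listed at 0 counts in all 6 libraries, over all 10 exons of its transcript (NM_144783, chr2:105126529-105173614, plus strand) in the exon-count files. The detection floor there allows a level of up to 0.106 CPM in any library, and no fold is given. Its partners were measured. Wtap and Basp1 had log2 fold changes of 0.05 and -0.26, and Wtip and Pawr, both at low levels, 1.36 and -0.91, with none past the threshold (adjusted p from 0.132 to 0.722 in edgeR).

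**Figure D3:**
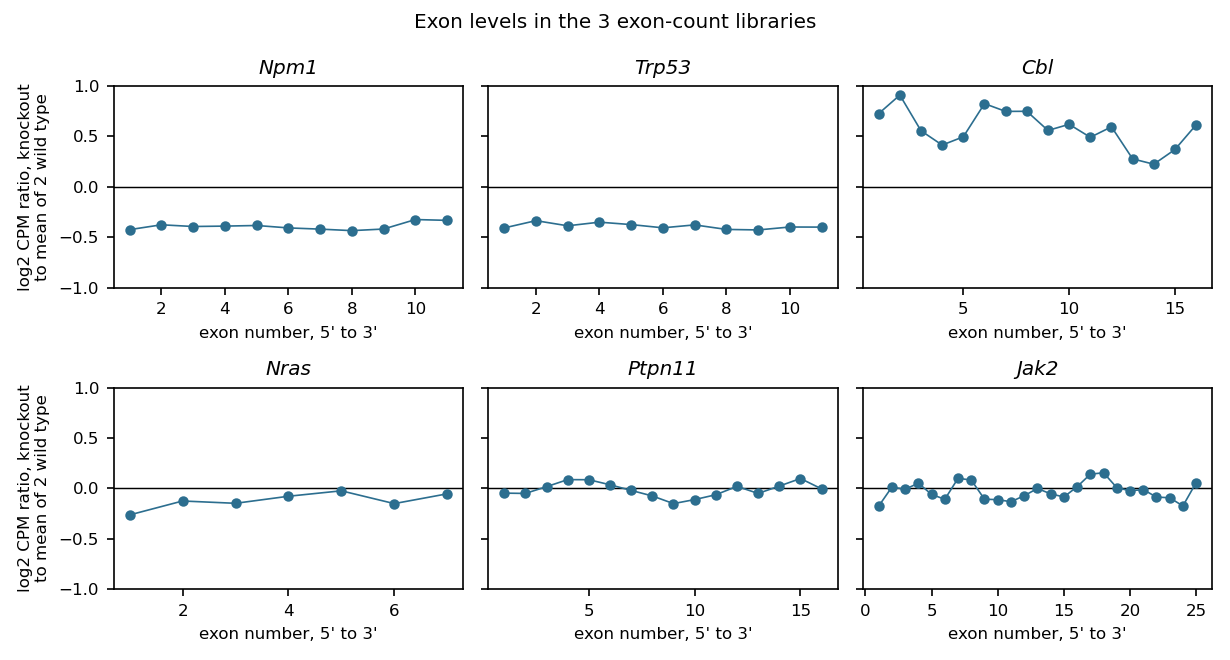
Log2 ratio of the CPM of each exon in the knockout exon-count library to the mean of the 2 wild type exon-count libraries, for the 6 genes whose exons all carried enough counts, in exon order from the 5′ end. Npm1 and Trp53 exons lay between -0.435 and -0.325, Cbl exons between 0.22 and 0.91, and Nras exons between -0.26 and -0.03, while exons of Ptpn11 and Jak2 lay on both sides of 0.

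Close relatives of the members gave a mixed picture. Hras, a relative of Nras, had a log2 fold change of -0.41 (adjusted p = 0.133 in edgeR). The phosphatase Ptpn6 was at -0.003 (adjusted p = 0.988), and the Cbl relative Cblb at -0.02 (adjusted p = 0.938), with Cblb at 38.6 and 43.8 against 37.3 CPM in the gene-count files and 30.8 against 35.8 and 33.8 CPM in the exon-count files. Cblc had no counts. The other JAK kinases were at 0.08 for Jak1, 0.33 for Jak3 and -0.34 for Tyk2. Npm3 stood at -0.36 (adjusted p = 0.133), and Npm2, under 0.45 CPM in every library, at -0.12. Trp63 and Trp73 had at most 2 counts in a library and were not tested. None of the relatives named here passed the threshold.

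The wider pathways were summarised by 14 lists that together held 157 genes, 154 of them tested. None passed the threshold in edgeR. At an unadjusted p under 0.05, 27 were higher and 24 lower, 33.1% of the genes, beside 27.7% of all genes. In DESeq2, 35 passed, 17 higher and 18 lower, beside 16.5% of all genes. The smallest adjusted p in edgeR was 0.0535, for Nop2.

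Of the Ras pathway, the GTPase-activating proteins and inhibitors, which turn Ras off, had mostly positive fold changes. Of 13 tested, 11 were higher in the fit and 10 lay above the wild type in both kinds of file (25.4% of all genes did). Their median log2 fold change was 0.28 beside 0.0005 over all genes. At an unadjusted p under 0.05, 4 of the 13 were higher and 0 lower. Of all 14145 tested genes, 2126 were higher and 1786 lower at that p. The highest-ranked were Dab2ip at 1.22, Rasa3 at 0.36, Rasa1 at 0.26 and Spred3 at 1.01, with adjusted p of 0.0685, 0.0983, 0.134 and 0.151 in edgeR. Among the Ras proteins, Rras2 was at 0.84, Mras at 0.52 and Rras at 0.37. The 14 exchange factors and adaptors, of which the exchange factors load Ras with GTP, had a median of -0.03. The exchange factors Rasgrp3 and Rasgrp2 were at -1.54 and 0.42, and the adaptors Gab3 and Shc1 at -0.47 and -0.14. In the Raf, MEK and ERK kinases, Map2k2 was at -0.43, Ksr1 at 0.30, Braf at 0.26 and Araf at -0.18. The genes that ERK signalling induces as feedback were 7 higher and 3 lower, with Etv4 at 1.12, Etv5 at 0.60, Dusp4 at 0.97 and Spry1 at -1.36. That split rests on single libraries: without wild type replicate 2 it was 3 higher and 7 lower and the median went from 0.59 to -0.06, and without Asxl2-/- replicate 2 it was 9 and 1 with a median of 1.08.

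Among Cbl partners, Ubash3b was at 0.32, Cd2ap at -0.31 and Ubash3a at -0.18. At an unadjusted p under 0.05, 2 of 7 tested genes of this list were higher, Cbl itself and Ubash3b. Of all 14145 tested genes, 2126 were higher at that p. Of the STAT factors, which JAK kinases activate, Stat2 was at -0.66, Stat4 at 0.86 and Stat5b at 0.08. The JAK-STAT inhibitors had a median of 0.03 with Socs2 at 1.31, Cish at 0.88, Socs5 at 0.69 and Pias3 at 0.37. Of 10 targets of STAT5, 6 were higher and 4 lower, with a median of 0.46 that library-size scaling moved to 0.56 with 8 higher. That scaling moved the number higher among all 14145 tested genes from 7084 to 8767. The STAT5 targets were led by Bcl2l1 at 0.78 (adjusted p = 0.0552 in edgeR), an anti-apoptotic factor, and by Cish, Socs2 and the kinase Pim1 at 0.35.

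Around p53, the 11 tested regulators had log2 fold changes between -0.18 and 0.23. None stood past an unadjusted p of 0.05 and the median was 0.01, with Ppm1d at 0.21, Trp53bp1 at 0.23, Usp7 at -0.15 and Rchy1 at -0.11. The ubiquitin ligase Mdm2 and its partner Mdm4, named after their values were seen, were at 0.01 and 0.07. The 29 targets of p53 were 21 higher and 8 lower, with a median of 0.15, a split that scaling by median ratio moved to 18 and 11 and library-size scaling to 23 and 6. Of all 14145 tested genes, 7084 were higher in the fit, 6298 under median-ratio scaling and 8767 under library-size scaling. Ephx1 was at 1.82, Phlda3 at 1.01, Rrm2b at 0.44 and Aen at -0.42, with adjusted p of 0.0544, 0.0855, 0.0875 and 0.0943 in edgeR. Cdkn1a, the cell-cycle inhibitor, was at 0.08 and the pro-apoptotic Bax at -0.32, both named after their values were seen.

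The list of nucleophosmin relatives and nucleolar proteins was the most one-sided. All 18, Npm1 among them, had a negative log2 fold change under TMM, median-ratio and library-size scaling alike. Of the 18, 17 lay below the wild type in both kinds of file, where 23.3% of all genes did. At an unadjusted p under 0.05, 14 were lower, where 1786 of all 14145 tested genes were. The median of the 18 was -0.36, and -0.26 under library-size scaling, which moved the median of all genes to 0.10. The 4 highest-ranked were Nop2 at -0.61, Bop1 at -0.53, Nolc1 at -0.62 and Polr1a at -0.51, factors of ribosomal RNA synthesis and ribosome assembly, with adjusted p from 0.0535 to 0.0732 in edgeR. DESeq2 called 13 of the 18, all lower, where it called 8.12% of all genes lower. Without Asxl2-/- replicate 2 or wild type replicate 1, 17 of the 18 were lower. Nucleolin (Ncl), named after its values were seen, measured 2028 and 2517 against 3036 CPM in the gene-count files and 2671 against 2848 and 3829 CPM in the exon-count files. These lists were chosen with earlier results of these data known, and their counts are a description.

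**Figure D4:**
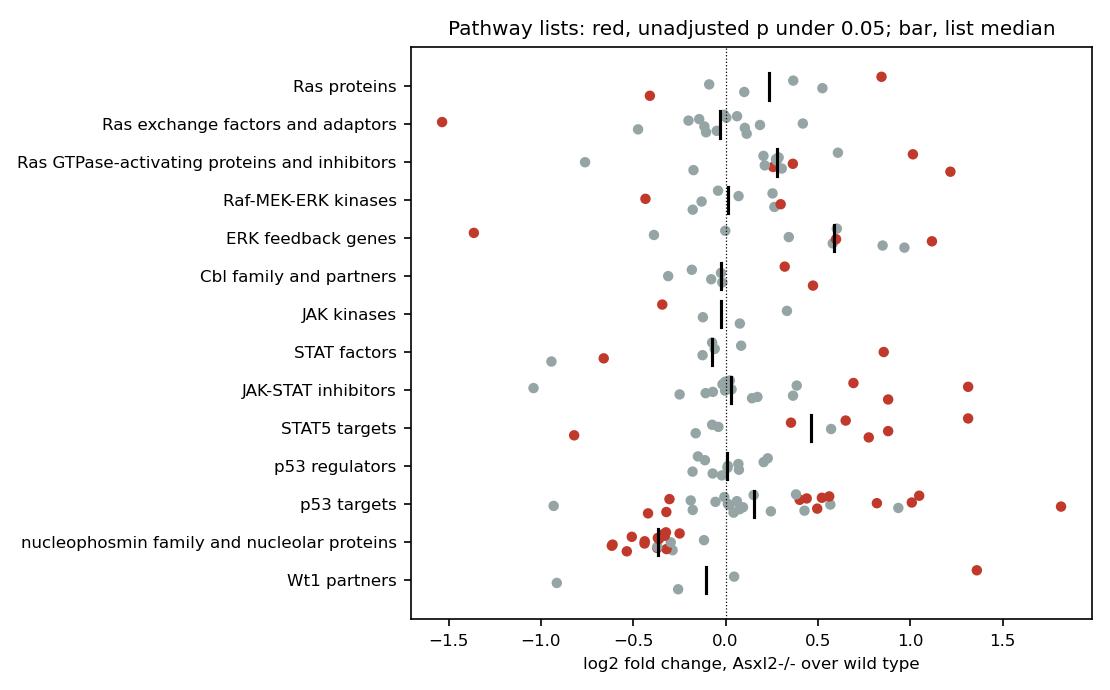
Log2 fold change, Asxl2-/- over wild type in LSK cells, of each tested gene in the 14 pathway lists, where red points have an unadjusted p under 0.05 in edgeR, grey points do not, and black bars are list medians. All 18 nucleolar genes lie left of 0 with a median of -0.36, the Ras inhibitors have a median of 0.28, and no point passed an adjusted p of 0.05.

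Over the 6 libraries, after removal of the effect of the kind of file, Pearson r between pairs of members ran from -0.94 for Cbl and Trp53 to 0.94 for Trp53 and Npm1. Nras and Jak2 had an r of 0.92, whereas Jak2 and Nf1 were at -0.10 and Nras and Nf1 at -0.11. With the genotype shift included in these values, 6 libraries and shared depth, such coefficients only describe the libraries. The tested genes most alike to each member were Dhx29, Cars and Mir6340 for Npm1, Bcap29, Nudt21 and Ireb2 for Nras, Pam16, Naa40 and Naa20 for Ptpn11, Xlr4a, Igll1 and Pde2a for Cbl, Rnf17, F830016B08Rik and Sc5d for Jak2, Cherp, Tdg and Gm9855 for Trp53, and Tdrd9, Fam172a and Adnp2 for Nf1, with r from 0.9894 to 0.9997. Igll1, which is a B-lymphoid marker, was the only one of these beside Pde2a past the threshold, with a log2 fold change of 2.30 (adjusted p = 0.0319 in edgeR), and Cbl followed it with an r of 0.999.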

How the data were processed

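RNA from 6 LSK samples was sequenced as poly(A)-selected, unstranded libraries. The authors deposited raw counts on mm10 with RefSeq transcripts (33068 lines in gene-count files, 317548 in exon-count files). The submitters' processing notes name STAR, featureCounts and DESeq2, and versions and roles are not given in the sources used here. Each symbol was represented by its longest transcript. Counts were fitted in edgeR 4.0.16 (R 4.3.3) with TMM scaling, the filterByExpr filter, and file kind and group as terms (3 residual degrees of freedom), with two-sided p-values adjusted over 14145 genes by Benjamini-Hochberg. DESeq2 1.42.0 and limma-voom (limma 3.58.1), other scalings and filters, a replicate block and leaving out libraries were alternatives. CPM values are TMM-normalised, and group levels and SDs had the effect of file kind removed, which makes the SDs somewhat too small. Intervals are 95% from the fit, and the floor covers counting error only. The members and lists were chosen with earlier results of these data known. Named genes were the members, their family relatives, the 4 genes with the smallest p of each list, and the 3 genes most correlated with each member. Some genes that this rule names are not reported here.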

Additional observations from a re-analysis of the deposited data

How the results depend on the processing

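None of the 7 tested genes passed under the fit reported, and 3 passed with DESeq2, 4 with the replicate block and file kind together, and 0 to 1 without single libraries, the 1 being Npm1 without wild type replicate 1. Of the 154 list genes none passed, and 35 passed with DESeq2, 2 with limma-voom, 1 with at least 10 counts in every library, 1 without the file kind, 78 with the replicate block and file kind, 2 with the replicate block alone, and 0 to 19 without single libraries (11 without Asxl2-/- replicate 2 and 19 without wild type replicate 1). Of all genes 331 passed, and 2329 passed with DESeq2, 161 with library size only, 5179 with the replicate block and file kind, and 9 to 1312 without single libraries, from 9 without wild type replicate 3 to 1312 without wild type replicate 1. The cause was not tested. The direction held in 116 of 119 alternative values of the members. Nras turned positive in the other 3, at 0.0107 with library size only, 0.0282 without the file kind and 0.0319 with the replicate block alone.

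Same-numbered libraries had correlated deviations of 0.294, -0.008 and -0.003, and 1 of 3 knockouts correlated best with its own number. These deviations still held the effect of file kind, and every same-numbered pair was of unlike kind. They therefore cannot show whether the samples are paired. The numbers were not taken to pair the samples because the methods of the study describe no pairing. The block fit with file kind leaves 1 residual degree of freedom. With 3 libraries a group in 2 kinds of file, differences of the size seen for Nras, Ptpn11 and Jak2 were not detectable here.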
